A study of Mus musculus with 8 samples.

Results

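Renin signal appeared on the arrays of progenitor cells that had received EBF1, a transcription factor needed for the B-lymphocyte programme, and was not well above background on the arrays of cells that had received an empty virus. The renin genes were represented by 3 of 41174 non-control probes, those that the scanner files name Ren1 (2 probes) or Ren2 (1 probe), and no other probe (0) cited the same transcripts. All 3 passed the filter on dim probes, which required detection, meaning a spot that the scanner software marks as well above background, on 2 or more of the 8 arrays. They did so through the arrays of cells with EBF1 alone. The genes were singled out because their signal was higher with EBF1 than with the empty virus, so the contrasts with the empty virus are given as descriptions, and only the difference between the EBF1 proteins is tested.

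The cells were c-Kit-positive fetal liver progenitors of Ebf1-/- mice on the C57Bl/6 background, grown on OP9 stromal feeder cells in medium with IL-7 (5 ng/ml), Flt3 ligand and stem cell factor (10 ng/ml of each). They carried pMys-IRES-GFP retroviruses with EBF1-H240A (H240A, n = 3 arrays), with wild-type EBF1 (EBF1wt, n = 3) or with no EBF1 (Empty, n = 2), and GFP-positive cells were sorted 36 h after transduction. All groups therefore lacked endogenous EBF1, and the EBF1 that was present came from a viral promoter. H240A replaces a histidine of EBF1 with alanine and is known to weaken its binding of CNOT3, which belongs to the CCR4-NOT complex of mRNA deadenylation. Whether replicates are separate cultures or animals is not stated in the labels, and the p-values below measure the variation among these samples only, some of which may be technical.

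Renin is an aspartic protease that cleaves angiotensinogen, the opening and rate-limiting step of the renin-angiotensin system. Angiotensin-converting enzyme then makes angiotensin II, which acts through its receptors on blood vessels, adrenal gland and kidney. In the adult the main source of renin is the juxtaglomerular cell of the kidney, and the gene there is driven by cyclic AMP signalling and by the Notch effector RBPJ. Renin-expressing cells have also been described in the mouse B-lymphocyte lineage. Some mouse strains carry a single renin gene, Ren1, and others carry Ren1 and the near-identical Ren2 side by side, while C57BL/6 is a strain with Ren1 only.

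The probe sequences are shown because they decide which renin transcript each spot can read. The 3′ probe of Ren1 (A_51_P316661) lies at chr1:135256659-135256718 of mm9, starts at base 1184 of its target, and is listed in the scanner files for the transcripts of both Ren1 and Ren2. The 5′ probe of Ren1 (A_52_P544060) lies at chr1:135250767-135250826 of mm9, 5892 bases from the 3′ probe between their starts, begins at base 187 of its target and is listed for Ren1 alone. The Ren2 probe (A_52_P192265) is listed for Ren2 alone, starts at base 1374 of its target and is given as unmapped in mm9. Capitals mark the stop codon of the open reading frame. The first 57 of 60 bases are given for the 3′ probe, all 60 for the 5′ probe and the first 30 for the Ren2 probe.
Ren1, 3′ probe: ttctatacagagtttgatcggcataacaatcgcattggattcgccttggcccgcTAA
Ren1, 5′ probe: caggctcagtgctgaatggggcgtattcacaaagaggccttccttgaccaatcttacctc
Ren2 probe: caagccaagctggcactcttgggggccatt
Over their full lengths no pair of these probes shares a run of more than 5 bases, so they read separate stretches of renin mRNA. Between near-identical paralogs a probe may still bind the transcript of the other gene. The part of Ren1 and of Ren2 transcripts in each signal cannot be told apart here, and "renin signal" below stands for both.

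In GRCm38.p6 Ren1 occupies chr1:133350674-133360320 on the plus strand, 9647 bases. The 300 bases around its start (chr1:133350424-133350723, 250 before and 50 after the start, from RefSeq) are printed because the study supplies a DNA-binding protein. Capitals mark a match to CCCNNGGG, the core of the palindromic motif bound by EBF proteins, and the TATA box.
Ren1 promoter: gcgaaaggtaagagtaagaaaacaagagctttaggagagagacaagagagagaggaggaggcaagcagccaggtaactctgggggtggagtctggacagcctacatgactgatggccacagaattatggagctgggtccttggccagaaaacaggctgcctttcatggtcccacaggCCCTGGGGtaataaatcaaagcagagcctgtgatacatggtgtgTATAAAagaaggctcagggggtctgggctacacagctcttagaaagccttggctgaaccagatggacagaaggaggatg
Counted from the start of the gene, the EBF core match CCCTGGGG runs from -73 to -66 and TATAAA from -29 to -24. Both strands were searched. CCCNNGGG occurs in 13.7% of 32851 promoter windows of the same length and TATAAA in 13.6%, so that a match by itself is common. The longer EBF palindrome, the core with a T before it and an A after it, occurs in 0.904% of windows and overlaps the core by construction. It has no match in the Ren1 window. The window holds no match either to TGGGAA, the letters bound by RBPJ (25.6% of windows), to the cyclic AMP response element TGACGTCA (1.79%) or to the NF-Y motif CCAAT (37.4%). These are matches of letters, and no binding was measured in the data used here.

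The arrays were alike in quality: the share of probes detected ran from 54.6% to 59.7%, 0 spots were saturated, and within a group the correlation across genes, which are not independent replicates, was 0.991 to 0.995. The introduced gene could not serve as a check of the labels. The bright Ebf1 probe (A_51_P188054, chr11:44818365-44818424 of mm9) had log2 signals of 10.44, 10.33 and 10.15 with H240A, 10.18, 10.17 and 10.19 with EBF1wt, and 10.10 and 10.19 with Empty. With limma its difference between H240A and EBF1wt was 0.13 ± 0.08 on the log2 scale (SE, adjusted p = 0.433), and against Empty it was 0.16 ± 0.09 for H240A (adjusted p = 0.202) and 0.03 ± 0.09 for EBF1wt (adjusted p = 0.807). The signal was present in all groups, Empty included, so that the amounts of the introduced proteins cannot be compared from these arrays.

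The renin values were as follows, first as the scanner software's background-corrected intensity (processed signal) of each array and in the order of the replicate numbers. The 3′ probe of Ren1 read 3704, 5428 and 3217 with H240A, 1616, 1421 and 1516 with EBF1wt, and 2.11 and 4.53 with Empty. The 5′ probe read 589, 782 and 475 with H240A, 246, 196 and 197 with EBF1wt, and 3.89 and 6.23 with Empty. The Ren2 probe read 1738, 2454 and 1583 with H240A, 750, 640 and 697 with EBF1wt, and 1.36 and 2.87 with Empty. At every probe the 3 groups were separate, with each H240A array above each EBF1wt array and each EBF1wt array above both Empty arrays. H240A 2 was the highest array at all 3 probes. The software marked the 6 spots with EBF1 as well above background at each probe and none (0 of 2) of the Empty spots, and no renin spot was saturated or an outlier. In cells with the empty virus the unprocessed spot brightness of the 3′ probe was 27.6 and 30.4, beside a local background of 25 and 24. It was 32.0 and 31.3 at the 5′ probe (background 25 and 23) and 28.0 and 30.1 at the Ren2 probe (background 25 and 24). The 5′ probe on Empty 2, with a scaled log2 signal of 2.33, lay above the lowest signal called well above background on that array (2.06), although its own spot was not so called.

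After scaling to a common 75th percentile, the 3′ probe of Ren1 had a mean log2 signal of 11.99 ± 0.29 with H240A, 10.60 ± 0.05 with EBF1wt (SD, n = 3 each) and 1.54 ± 0.47 with Empty (SD, n = 2). The means of the Ren2 probe were 10.91 ± 0.25 with H240A, 9.48 ± 0.07 with EBF1wt and 0.89 ± 0.45 with Empty, and those of the 5′ probe of Ren1 were 9.26 ± 0.25 with H240A, 7.76 ± 0.12 with EBF1wt and 2.21 ± 0.16 with Empty. The replicates of H240A spread more than those of EBF1wt at each probe, over 0.47 to 0.52 log2 units against 0.09 to 0.21. Brightness differs between probes for reasons of sequence, and the levels of one probe are not compared with those of another.

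**Figure D1:**
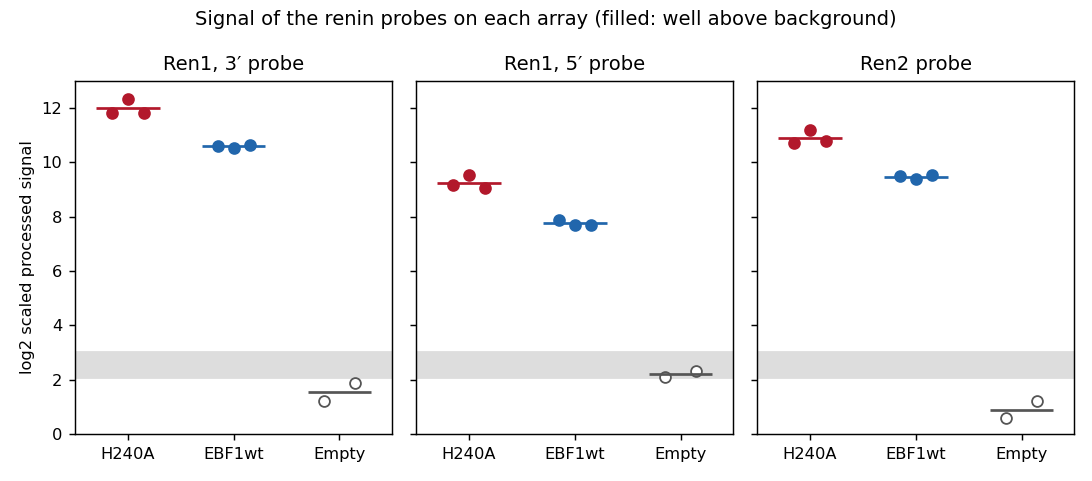
Log2 scaled processed signal (vertical axis) of the 3 renin probes on each array, with 3 H240A, 3 EBF1wt and 2 Empty arrays from left to right in each panel. Points are arrays, lines are group means, filled points were well above background and open points were not, and the grey band spans the lowest signal called well above background on the 8 arrays. All 6 arrays with EBF1 lie far above the band, the H240A arrays highest, and the Empty arrays lie in or below it.

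Against Empty only lower limits of the fold can be given, because no Empty spot was called well above background. They set the mean with EBF1 against the higher of the Empty signal and the lowest signal called well above background on that array. Renin signal at the 3′ probe of Ren1 was at least 728-fold higher with H240A and at least 278-fold higher with EBF1wt. At the Ren2 probe it was at least 343-fold higher with H240A and at least 127-fold higher with EBF1wt, and at the 5′ probe of Ren1 at least 99.5-fold higher with H240A and at least 35.3-fold higher with EBF1wt. These limits depend on how the background is treated. With normexp background correction, a model-based subtraction with an added offset, they were 62.6 and 24.7 at the 3′ probe, 38.7 and 14.96 at the Ren2 probe, and 9.80 and 4.09 at the 5′ probe, each time H240A first. Between 15.6% (EBF1wt) and 19.8% (H240A) of all 25001 probes tested were called higher than Empty, a background share that says nothing on genes chosen by this very contrast. In a bulk sample such as this, more cells that transcribe renin and more renin RNA per cell cannot be told apart.

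Cells with H240A carried more renin signal than cells with EBF1wt, at every probe and to a similar extent. The difference was 1.39 ± 0.20 on the log2 scale at the 3′ probe of Ren1 (SE, n = 3 arrays each, limma, Benjamini-Hochberg adjusted p = 0.0140), or 2.62-fold with a 95% confidence interval of 1.89 to 3.64. It was 1.49 ± 0.14 at the 5′ probe of Ren1 (adjusted p = 0.00365), or 2.82-fold (2.24 to 3.54). It was 1.43 ± 0.18 at the Ren2 probe (adjusted p = 0.0104), or 2.70-fold (1.99 to 3.65). The 3 intervals overlap almost wholly. The probes read the same 8 RNA samples and near-identical transcripts, and they are not independent evidence of each other. Over all 25001 probes tested in this comparison 3.06% were called higher with H240A and 5.28% in either direction. Among the 21903 probes that were well above background on all 6 arrays with EBF1, the H240A and EBF1wt arrays did not overlap and H240A was higher for 16.7%. In the order of the difference among those probes the renin probes stood at places 24, 28 and 31. This contrast shares its arrays with the contrasts that drew attention to the genes, and its result at the brighter Ren1 and Ren2 probes was known beforehand.

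The arrays lay on 2 slides, each also scanned as a set, and the excess with H240A was present within both. Slide 1 held H240A 1, H240A 2 and EBF1wt 2, and slide 2 held H240A 3, EBF1wt 1 and EBF1wt 3. The difference within slides 1 and 2 was 1.52 and 1.20 at the 3′ probe of Ren1, 1.66 and 1.27 at the 5′ probe and 1.56 and 1.29 at the Ren2 probe. Within a slide the spread rests on 1 residual degree of freedom, and no probe was called there, with adjusted p from 0.378 to 0.443. The call of the 3′ probe was also lost without EBF1wt 1 (1.40, adjusted p = 0.0594) and without EBF1wt 2 (1.36, adjusted p = 0.0544), although the difference hardly moved. The 5′ probe and the Ren2 probe kept their calls whichever single array was left out. Without H240A 2, the brightest array, the differences were 1.22, 1.35 and 1.29 for the 3′, 5′ and Ren2 probes.

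**Figure D2:**
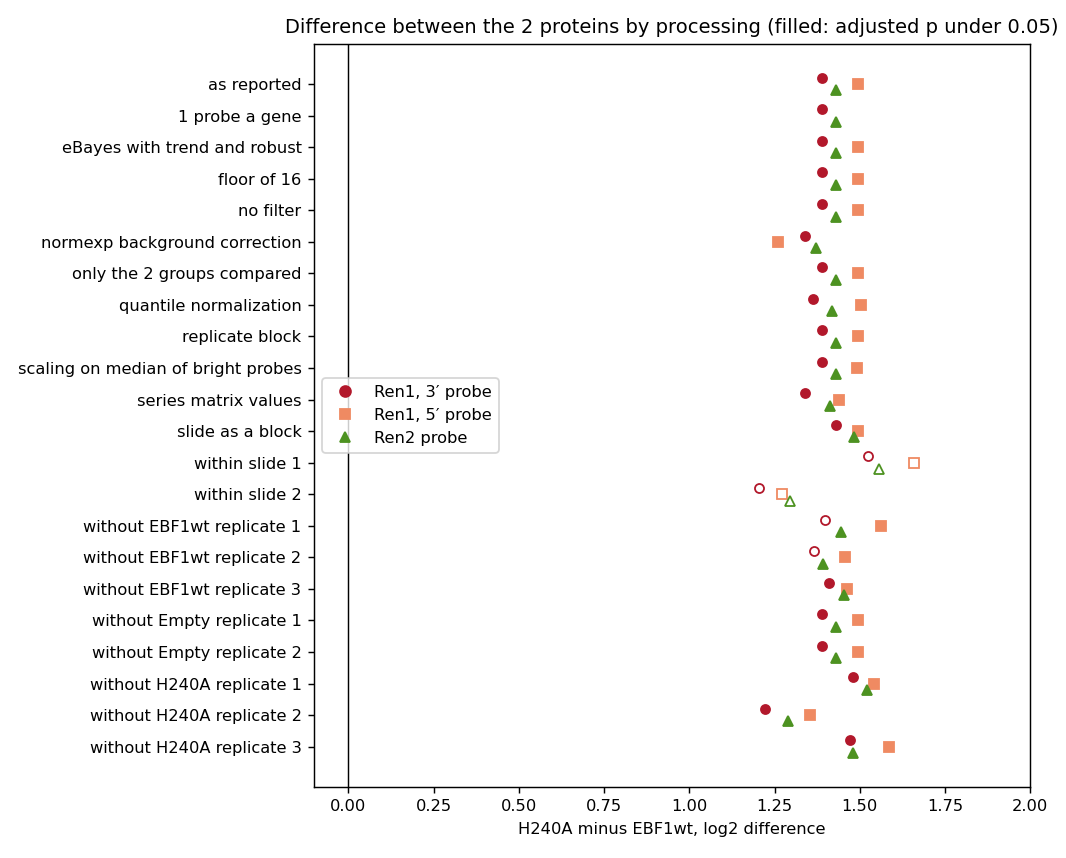
Log2 difference of H240A minus EBF1wt (horizontal axis) at the 3 renin probes, as reported (top) and under each other way of processing or with an array left out. Filled symbols passed an adjusted p of 0.05 and open symbols did not. The difference lies between 1.20 and 1.66 in all settings shown, right of the line at 0, and the open symbols are the fits within a slide and the 3′ probe without EBF1wt 1 or EBF1wt 2.

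Most other genes of the renin-angiotensin system were either too dim to test or not called higher with EBF1. Of 26 genes of the pathway, all on the array, 14 were tested and 12 were too dim, 10 of these on no array and Agtr1a and Mas1 on a single array each. Agt, which encodes angiotensinogen, the only known substrate of renin, was detected on 0 of 8 arrays. Nor were the receptor genes Agtr1b and Agtr2, or the angiotensin-degrading peptidase genes Enpep and Mme. Ace, the gene of the converting enzyme, was dim, with mean log2 signals of 4.50 with H240A, 4.53 with EBF1wt and 5.11 with Empty, and did not pass against Empty (-0.60 ± 0.21, adjusted p = 0.0533 for H240A; -0.58 ± 0.21, adjusted p = 0.0677 for EBF1wt). Atp6ap2, the prorenin receptor and a part of the vacuolar proton pump, was bright in every group, with 10.40 with H240A, 10.31 with EBF1wt and 10.26 with Empty, and was called in no comparison. Agtrap, which encodes a protein that binds the type 1 angiotensin receptor, read 10.95 with H240A, 11.02 with EBF1wt and 11.21 with Empty and was called in none.

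Enzymes that can cleave angiotensin peptides changed in both directions. None (0) of the 14 tested genes differed between H240A and EBF1wt at the adjusted threshold, and 3 did at an unadjusted p under 0.05. Over all 16323 genes tested, 6.37% were called in that comparison, 3.64% higher and 2.73% lower. With H240A against Empty 4 rose (Lnpep, Cma1, Ctsg and Ctsb), 4 fell (Cpa3, Nln, Prcp and Prep) and 6 did not pass, beside 21.6% higher and 23% lower among all genes. With EBF1wt against the same Empty arrays 2 rose (Cma1 and Ctsg), 4 fell (the same 4 genes) and 8 did not pass, beside 17.2% and 21.2% among all genes. The median difference of the 14 was 0.03 for H240A minus EBF1wt, 0.01 for H240A minus Empty and -0.16 for EBF1wt minus Empty, next to 0.02, -0.00 and -0.04 over all genes.

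The carboxypeptidase gene Cpa3, typical of mast cells, had the largest of these changes. Its log2 signals were 3.06, 3.31 and 3.29 with H240A, 3.73, 2.98 and 3.63 with EBF1wt, and 6.97 and 6.95 with Empty. It fell with both proteins, without overlap between the arrays with EBF1 and those without, at -3.74 ± 0.22 for H240A (adjusted p = 3.14e-05) and -3.52 ± 0.22 for EBF1wt (adjusted p = 5.22e-05). Ctsg encodes cathepsin G, a granule protease that can form angiotensin II. It read 4.01, 3.99 and 4.30 with H240A, 4.06, 4.14 and 3.53 with EBF1wt, and 2.53 and 2.88 with Empty, all dim. Its difference from Empty was 1.40 ± 0.21 for H240A (adjusted p = 0.00201) and 1.20 ± 0.21 for EBF1wt (adjusted p = 0.00470). With normexp background correction the EBF1wt difference no longer passed (0.26, adjusted p = 0.103), and both were lost with a floor of 16 under the scaled signal. Cma1, the gene of mast cell chymase, another angiotensin II-forming enzyme, was well above background on 2 of 3 arrays with H240A, 2 of 3 with EBF1wt and 0 of 2 with Empty. Its log2 difference from Empty was 1.76 ± 0.37 with H240A (adjusted p = 0.00822) and 2.16 ± 0.37 with EBF1wt (adjusted p = 0.00429). As lower limits, not themselves tested, these were at least 1.56-fold and at least 2.05-fold. With the floor of 16 the EBF1wt call was lost. The signals with H240A and with Empty also lay below that floor, which leaves no difference between them. Cma1 passed the filter on dim probes through the arrays with EBF1 alone. In a fit of all 27324 genes without that filter its adjusted p was 0.0203 for H240A and 0.0119 for EBF1wt. Ctsb, whose product cathepsin B can activate prorenin, rose with H240A (0.61 ± 0.12, adjusted p = 0.00573), and its difference with EBF1wt was 0.20 ± 0.12 (adjusted p = 0.225). Nln, the gene of neurolysin, an angiotensin-cleaving peptidase, fell by 0.64 ± 0.11 with H240A (adjusted p = 0.00353) and by 0.45 ± 0.11 with EBF1wt (adjusted p = 0.0177). Prep, a prolyl endopeptidase gene, fell by 0.29 ± 0.06 with H240A (adjusted p = 0.00965) and by 0.27 ± 0.06 with EBF1wt (adjusted p = 0.0156), and the EBF1wt call was lost without Empty 1 (-0.19, adjusted p = 0.0928). The H240A difference of Prep was not tested with arrays left out.

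In a list of 7 other aspartic protease genes 4 were tested, and against Empty these changed in both directions. Ctsd encodes cathepsin D, a lysosomal enzyme related to renin, and read 14.40, 14.20 and 14.48 with H240A, 13.55, 13.61 and 13.61 with EBF1wt, and 13.08 and 13.04 with Empty. It was higher with H240A than with EBF1wt by 0.77 ± 0.08 (adjusted p = 0.00447), and higher than Empty by 1.30 ± 0.09 with H240A (adjusted p = 6.00e-05) and by 0.53 ± 0.09 with EBF1wt (adjusted p = 0.00359). Of the 4 tested genes 1 was higher and 0 were lower with H240A than with EBF1wt, beside 3.64% and 2.73% of all genes. With either protein against Empty 1 rose (Ctsd) and 1 fell (Bace1). Against Empty 21.6% of all genes were higher and 23% lower with H240A, and 17.2% higher and 21.2% lower with EBF1wt. The share of all genes called in all 3 comparisons, as Ctsd was, was not computed. Bace1, the gene of beta-secretase, fell by 0.48 ± 0.10 with H240A (adjusted p = 0.00717) and by 0.50 ± 0.10 with EBF1wt (adjusted p = 0.00745), and both calls were lost without Empty 1 (adjusted p = 0.0513 and 0.0539). Asprv1, an aspartic protease gene outside the list that is described further on for its profile, averaged 13.84 with H240A, 12.89 with EBF1wt and 5.74 with Empty. Napsa and Ctse were called in no comparison, and Pga5, Pgc and Bace2 were too dim to test.

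**Figure D3:**
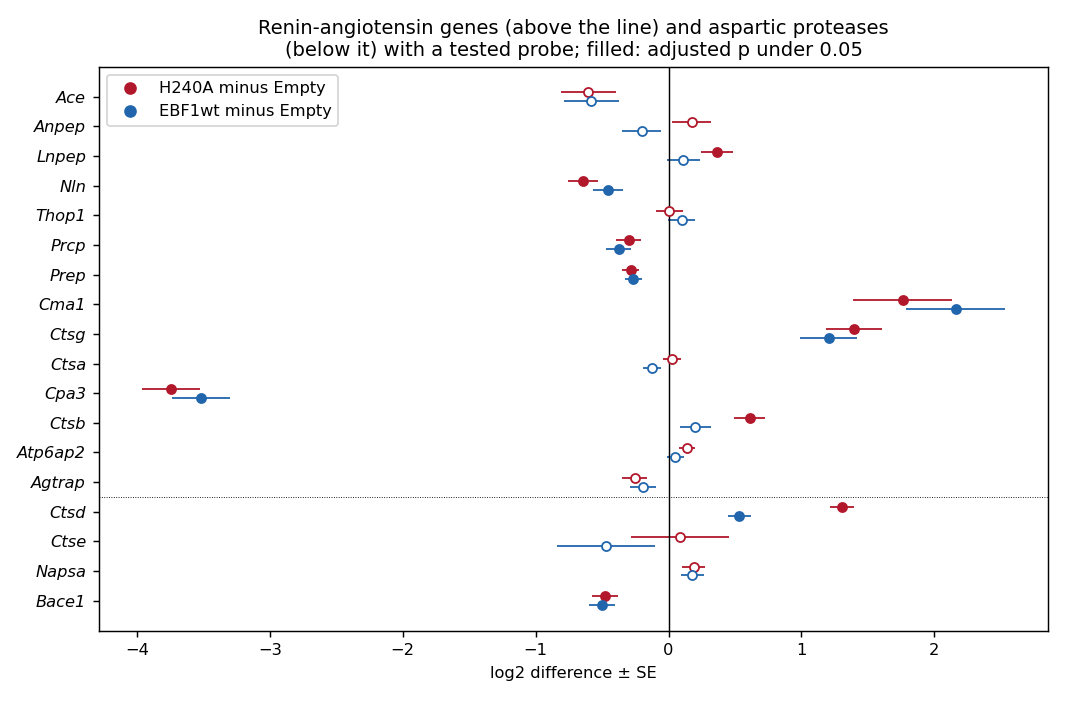
Log2 difference ± SE (horizontal axis) of H240A minus Empty (red, upper) and EBF1wt minus Empty (blue, lower) for the 14 tested genes of the renin-angiotensin list, above the dotted line, and the 4 tested aspartic proteases, below it. Filled points passed an adjusted p of 0.05. Cpa3 lies far left at -3.74 and -3.52, Cma1 and Ctsg lie right of 0, and most other genes lie within 1 log2 unit of 0.

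Known regulators of the renin promoter were mostly detected. Against Empty more of them fell than rose with either protein, as was also so among all genes tested. Of 27 such genes 23 were tested, and none (0) differed between H240A and EBF1wt at the adjusted threshold (3 at an unadjusted p under 0.05). With H240A against Empty 3 rose (Nfia, Vdr and Crebbp), 6 fell and 14 did not pass, and with EBF1wt 2 rose (Nfia and Vdr), 8 fell and 13 did not pass. Among all genes 21.6% were higher and 23% lower with H240A, and 17.2% higher and 21.2% lower with EBF1wt. The medians were -0.08 and -0.05, next to -0.00 and -0.04 over all genes. Rbpj, named here for its role at the renin gene and not by the rule, read 8.78, 8.83 and 8.82 with H240A, 8.66, 8.81 and 8.81 with EBF1wt, and 9.09 and 8.93 with Empty. Its difference from Empty was -0.20 ± 0.08 with H240A (adjusted p = 0.0726) and -0.25 ± 0.08 with EBF1wt (adjusted p = 0.0406). Creb1, the gene of the cyclic AMP response element binding protein, fell by 0.34 ± 0.07 with H240A (adjusted p = 0.00909) and by 0.49 ± 0.07 with EBF1wt (adjusted p = 0.00254). With normexp background correction the H240A difference no longer passed (-0.28, adjusted p = 0.0531).

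Of the nuclear receptors on the list, several of which bind the renin promoter, Vdr alone was called higher. Rarg, Nr2f6 and Rxra fell with both proteins, Nr1h2 fell with EBF1wt, and Nr1h3 and Rara were called in no comparison. The retinoic acid receptor gene Rarg fell by 0.74 ± 0.13 with H240A (adjusted p = 0.00346) and by 0.64 ± 0.13 with EBF1wt (adjusted p = 0.00799). Nr2f6 (Ear2), described as a repressor of renin, fell by 0.37 ± 0.07 with H240A (adjusted p = 0.00550) and by 0.28 ± 0.07 with EBF1wt (adjusted p = 0.0206). Vdr, the vitamin D receptor, likewise known to repress renin, rose by 0.40 ± 0.09 with H240A (adjusted p = 0.0126) and by 0.60 ± 0.09 with EBF1wt (adjusted p = 0.00278). The EBF1wt call of Vdr was lost with normexp correction (adjusted p = 0.0532) and in the authors' deposited value table (adjusted p = 0.0592). The H240A difference of Vdr was not tested under these alternatives. Pde3b, which encodes a phosphodiesterase that breaks down cyclic AMP, fell by 0.40 ± 0.09 with H240A (adjusted p = 0.00950) and by 0.48 ± 0.09 with EBF1wt (adjusted p = 0.00592). Nfia, a nuclear factor I gene, was well above background on all 6 arrays with EBF1 and on neither Empty array. Its log2 difference from Empty was 1.87 ± 0.19 with H240A (adjusted p = 0.000392) and 1.75 ± 0.19 with EBF1wt (adjusted p = 0.000656). As lower limits, not themselves tested, these were at least 3.66-fold and at least 3.37-fold. With the floor of 16 the EBF1wt call was lost (adjusted p = 0.0524). Nfia too passed the filter on dim probes through the arrays with EBF1 alone, and without the filter its adjusted p was 0.00142 for H240A and 0.00228 for EBF1wt. Adcy5, Nr2f2 and Hoxd10 were among the genes too dim to test.

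Of the tested genes that mark renin cells of the kidney, 33.3% were called higher than Empty with H240A and 22.2% with EBF1wt. The shares among all genes were 21.6% and 17.2%. The H240A share and the median below include Akr1b7, which entered the tested genes through the H240A arrays alone. They are therefore not read as an excess over all genes. Of 12 such genes 9 were tested, and Cnn1, Rgs5 and Foxd1 were well above background on no array. With H240A against Empty 3 rose (Pdgfrb, Acta2 and Akr1b7), 1 fell (Crip1) and 5 did not pass, and with EBF1wt 2 rose (Pdgfrb and Cspg4), 0 fell and 7 did not pass, beside the same shares among all genes (21.6% higher and 23% lower with H240A, 17.2% and 21.2% with EBF1wt). The medians were 0.43 for H240A and 0.24 for EBF1wt, next to -0.00 and -0.04 over all genes. Akr1b7 encodes an aldo-keto reductase that marks juxtaglomerular cells. It was well above background on 3 of 3 arrays with H240A, 0 of 3 with EBF1wt and 0 of 2 with Empty. Its log2 signals were 3.34, 3.18 and 3.498 with H240A, 1.24, 2.54 and 1.38 with EBF1wt, and 2.01 and 0.33 with Empty. Its log2 difference between H240A and Empty was 2.17 ± 0.55 (adjusted p = 0.0176), and as a lower limit, not itself tested, at least 1.81-fold. That call was lost without Empty 2 (adjusted p = 0.0942) and with the floor of 16. Akr1b7 passed the filter on dim probes through the H240A arrays alone. In a fit of all 27324 genes without that filter its adjusted p was 0.0393. Against EBF1wt it did not pass (1.62 ± 0.49, adjusted p = 0.109). Gja5, the gene of connexin 40, was well above background on 1 array of each group and was called in no comparison.

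Pdgfrb encodes a receptor of pericytes and of the mesenchyme from which renin cells descend. It read 10.69, 10.60 and 10.46 with H240A, 10.09, 10.20 and 10.23 with EBF1wt, and 8.58 and 8.69 with Empty, in the order seen for renin. It rose by 1.95 ± 0.09 with H240A (adjusted p = 1.17e-05) and by 1.54 ± 0.09 with EBF1wt (adjusted p = 3.81e-05). Its difference of 0.41 ± 0.08 between H240A and EBF1wt (adjusted p = 0.0306) was lost without any single array but H240A 3, with adjusted p from 0.0510 to 0.106, when slide entered the model (0.40, adjusted p = 0.0698), without a filter (adjusted p = 0.112) and in a fit of the compared groups alone (adjusted p = 0.0510). Crip1, the gene of a LIM protein of renin cells, was lower with H240A than with EBF1wt (-0.86 ± 0.15, adjusted p = 0.0212). That call was lost without any single EBF1wt array, without H240A 1 and without H240A 3, with adjusted p from 0.0563 to 0.0810, and without a filter (adjusted p = 0.0651). Crip1 was also lower with H240A than with Empty (-0.75 ± 0.16, adjusted p = 0.00953), a call lost without Empty 1 (adjusted p = 0.0664). Acta2, smooth muscle actin, rose by 0.43 ± 0.11 with H240A (adjusted p = 0.0153), which was lost without Empty 1 (adjusted p = 0.0914). Cspg4, the gene of the pericyte proteoglycan NG2, rose by 1.097 ± 0.23 with EBF1wt (adjusted p = 0.00899), which was lost without Empty 2 (adjusted p = 0.05004), and did not pass with H240A (0.59 ± 0.23, adjusted p = 0.0717).

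Other cells that could have contributed RNA were checked by their marker genes, as the sum of scaled signals over each list. Markers of hematopoietic progenitors, the labelled cell type, were all (5 of 5) well above background on every array, with sums of 21930 to 22857 with H240A, 18391 to 19790 with EBF1wt and 34222 to 36012 with Empty. Stromal markers, 4 of 8 of them detected on every array, summed to 395 to 447 with H240A, 326 to 446 with EBF1wt and 253 to 294 with Empty. Lum and Postn were undetected in all groups, and Pdgfra with EBF1wt and with Empty. Smooth muscle and juxtaglomerular markers summed to 11556 to 12862 with H240A, 10156 to 12257 with EBF1wt and 8882 to 9469 with Empty, nearly all of it Acta2. Of the 7 members 4 were detected on every H240A array, 2 on every EBF1wt array and 2 on every Empty array. Cnn1 and Rgs5 were undetected in all groups, and Akr1b7 with EBF1wt and with Empty. Both sums were higher with EBF1 than with Empty, as renin was, and their part in the renin signal was not tested. B-lineage markers summed to 27848 to 31560 with H240A, 51493 to 57828 with EBF1wt and 755 to 819 with Empty, with Pax5 undetected in all groups. They were thus lower with H240A than with EBF1wt, the opposite of the order of renin. Mast cell markers were 210 to 415 with H240A, 274 to 321 with EBF1wt and 417 to 426 with Empty, with Fcer1a, Ms4a2, Mcpt4 and Tpsb2 undetected in all groups. Macrophage markers were 4915 to 6180 with H240A, 4164 to 4511 with EBF1wt and 5010 to 5477 with Empty, without C1qa in any group. Members of that list moved apart. Adgre1, the brightest of them on every array, had log2 signals of 11.45, 11.32 and 11.77 with H240A. It read 11.25, 11.35 and 11.30 with EBF1wt, and 11.97 and 12.07 with Empty. Csf1r was higher than Empty by 2.001 ± 0.15 with H240A (adjusted p = 9.20e-05) and by 1.42 ± 0.15 with EBF1wt (adjusted p = 0.000508), with group means in the order of renin. Mrc1 was lower by both, at -2.16 ± 0.25 for H240A (adjusted p = 0.000616) and -1.81 ± 0.25 for EBF1wt (adjusted p = 0.00169). The part of these cells in the renin signal was not tested. Hepatocyte markers were 89.0 to 91.5 with H240A, 195 to 223 with EBF1wt and 592 to 595 with Empty, with Alb, Afp, Apoa1 and Ttr undetected in all groups.

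The genes beside Ren1 on chromosome 1 changed in both directions against Empty, and the nearest on each side were called in no comparison. The 5 nearest named genes with a tested probe on each side were Mdm4, Ppp1r15b, Plekha6, Golt1a and Kiss1 before Ren1 and Etnk2, Snrpe, Zc3h11a, Lax1 and Prelp after it. Of these 10, 1 (Lax1) was higher with H240A than with EBF1wt and 0 were lower, beside 3.64% and 2.73% of all genes. With H240A against Empty 4 were higher (Ppp1r15b, Zc3h11a, Lax1 and Prelp) and 2 lower (Plekha6 and Snrpe), and with EBF1wt 1 was higher (Lax1) and 2 were lower (Plekha6 and Snrpe). The shares among all genes were 21.6% and 23% for H240A and 17.2% and 21.2% for EBF1wt. How many of all genes were called higher in all 3 comparisons, as Lax1 was, was not computed. Of these calls, Prelp was lost without Empty 1, Empty 2, EBF1wt 1, H240A 2 or H240A 3 (adjusted p from 0.0547 to 0.173) and Zc3h11a without any H240A array, either Empty array or EBF1wt 2 (0.0515 to 0.138). Snrpe was lost without Empty 1 or Empty 2 for H240A (0.0723 and 0.0582), and without either of these, EBF1wt 1 or EBF1wt 3 for EBF1wt (0.0515 to 0.0953). The nearest genes were dim and called in no comparison. Kiss1, the kisspeptin gene 20.95 kb before Ren1, averaged 4.18 with H240A, 4.14 with EBF1wt and 4.19 with Empty. Etnk2, an ethanolamine kinase gene 3.14 kb after Ren1, averaged 3.77 with H240A, 4.53 with EBF1wt and 4.48 with Empty, and its difference between H240A and EBF1wt (-0.76 ± 0.23, adjusted p = 0.109) did not pass. Lax1, which encodes an adaptor of lymphocyte receptor signalling and lies 319 kb away, read 7.28, 7.47 and 7.14 with H240A, 6.56, 6.56 and 6.50 with EBF1wt, and 5.52 and 5.61 with Empty, without overlap between groups. It was higher with H240A than with EBF1wt by 0.75 ± 0.09 (adjusted p = 0.00731), and higher than Empty by 1.73 ± 0.10 with H240A (adjusted p = 3.02e-05) and by 0.98 ± 0.10 with EBF1wt (adjusted p = 0.000466).

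The genes closest to renin in profile were ranked by the size of the difference from it. Each gene's log2 signals were centred on their mean over the 8 arrays and set against those of the 3′ probe of Ren1 by the root mean square difference. The arrays and the scaling are shared by all genes, and the ranking is a description. It includes the Empty arrays, where renin was not well above background. Of 16322 genes Ren2 came closest (0.20 log2 units), a probe whose signal cannot be told apart from a further reading of Ren1 in this strain. It was followed by Lct (0.26), which encodes lactase, Tmprss6 (0.80), a membrane serine protease that regulates hepcidin in liver, and Fcnb (0.84), the gene of a ficolin. Col26a1 (0.90), a collagen gene, Cidea (0.93), a gene of a lipid droplet protein, and Asprv1 (0.97), a retroviral-like aspartic protease gene, came next. Lct read 12.09, 12.52 and 12.04 with H240A, 11.15, 11.18 and 11.30 with EBF1wt, and 2.002 and 2.78 with Empty, where 1 of the 2 arrays was well above background, and H240A 2 was its highest array too. The mean difference between H240A and EBF1wt was 1.01 for Lct, 0.93 for Tmprss6, 1.56 for Fcnb, 0.73 for Cidea and 0.94 for Asprv1. Col26a1 stood apart with 0.15. It shared the rise with renin, and each H240A array was above each EBF1wt array, but that difference did not pass (limma, adjusted p = 0.745). With Pearson's r over the 8 arrays in place of the root mean square difference, Ren2 was again first, then Trim66, Lct, Rasa4, Cibar2 and B3gnt8. Over the 6 arrays with EBF1 alone the ranking was another one, with Ren2 first again, Lct at place 15, Tmprss6 at 42, Asprv1 at 70, Fcnb at 138, Cidea at 193 and Col26a1 at 3226. Among the named genes Dnah2, Mroh1 and Kazn then came closest after Ren2. Of the 6 genes other than Ren2 closest over all 8 arrays, 3 have a promoter window in the RefSeq table. Fcnb and Asprv1 hold a CCCNNGGG match, which 13.7% of all windows do, and none (0) of the 3 holds the longer EBF palindrome.

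**Figure D4:**
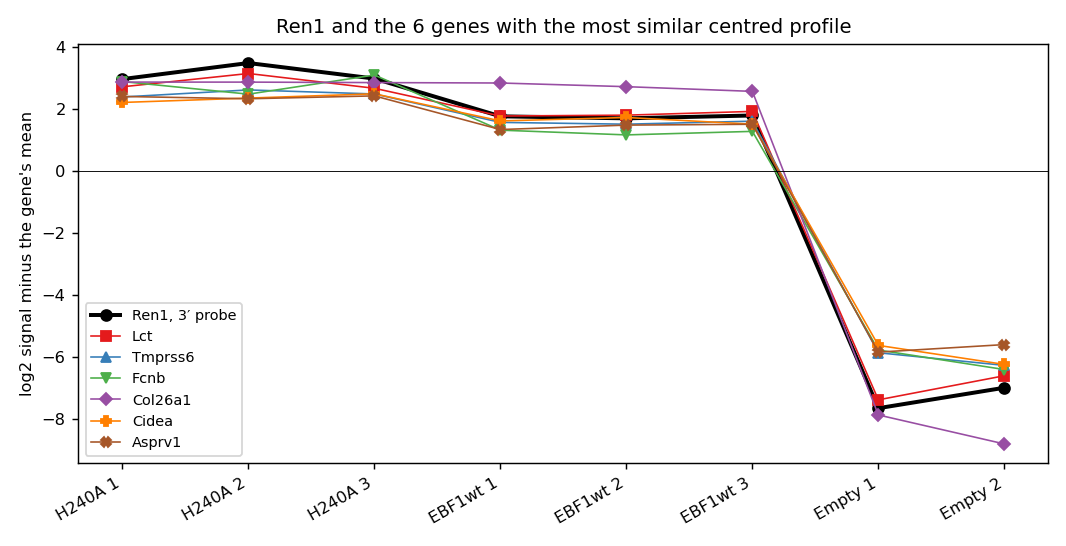
Log2 signal minus the gene's own mean (vertical axis) on each array (horizontal axis: H240A 1 to 3, EBF1wt 1 to 3, Empty 1 and 2) for the 3′ probe of Ren1 (black) and the 6 genes with the most similar profile. Lines join the values of a gene and imply no order of replicates. All 7 fall steeply to the Empty arrays, and Col26a1 is nearly level over the 6 arrays with EBF1 while the others are more clearly higher with H240A.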

How the data were processed

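Each of the 8 samples has a one-colour array, whose scanner output came from Agilent Feature Extraction (version 10.5.1.1 in the submitters' processing notes). Its processed signal, per the file headers, is a linear intensity from which a spatially fitted background was subtracted, mean and local background intensities are unprocessed, other columns hold flags, and the annotation is mm9. The deposited p-value per spot, which compares spot and background pixels, entered no result. The deposited value table holds log2 values, normalized between arrays by a method not given in the sources used here, and served as an alternative only.

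Processed signals were scaled to a common 75th percentile, set to at least 1 and put on the log2 scale, without outlier spots and with spots of a probe averaged. Probes well above background on at least 2 arrays were kept (25025, of which 24 lacked a value on some array). Of the 41174 probes, RefSeq named 27816 through their accession, 5503 through the symbol and 380 through an older one, and 7475 kept the file's name. Renin was tested probe by probe among 25001 probes, and the lists among 16323 genes, each by its brightest kept probe. limma 3.58.1 in R 4.3.3 (lmFit, eBayes, all 8 arrays, no covariate, 5 residual and 1.94 prior degrees of freedom for probes) was used, with Benjamini-Hochberg adjustment over all features, and adjusted p under 0.05 is a call. The script was tested on simulated data. The number of arrays limits the precision. Sequences came from the scanner files and the RefSeq promoter table. The replicate numbers were not used to pair the samples, because the labels do not say what equal numbers share. Deviations from the group means of same-numbered H240A and EBF1wt arrays correlated at 0.16, -0.23 and 0.09. So few arrays, on different slides, cannot decide whether the samples are paired.

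The renin probes, gene lists and tests were chosen with earlier results of these data known. Named are every renin probe, the 6 most similar genes, list members called between H240A and EBF1wt (up to 6), the 4 of smallest adjusted p in each comparison with Empty, and 5 neighbours on each side. Pathway genes named beyond this rule (such as Agt, Ace, Atp6ap2, Agtrap and Rbpj) were named after their values were seen.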

Additional observations from a re-analysis of the deposited data

How the results depend on the processing

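The excess of renin signal with H240A over EBF1wt kept its direction under every alternative run, and its call at all 3 probes under normexp, quantile and median scaling, the deposited value table, no filter, a floor of 16, the slide as a block, a fit of the compared groups alone and a trended robust prior. Within slides 1 and 2 the calls were lost (1.52 and 1.20 at the 3′ probe, 1.66 and 1.27 at the 5′ probe, 1.56 and 1.29 at the Ren2 probe), where a fit has 1 residual degree of freedom. Leaving out single arrays gave 1.22 to 1.48, 1.35 to 1.59 and 1.29 to 1.52 for these probes. The replicate number, whose meaning the labels do not state, was also entered as a block. The differences were then 1.39, 1.49 and 1.43 (limma, adjusted p = 0.0380, 0.0267 and 0.0353). Genes called numbered 360, 5925 and 4810 for H240A minus EBF1wt, H240A minus Empty and EBF1wt minus Empty, and called members of the 5 lists 2, 24 and 18. Under a filter that keeps a probe only if all 8 arrays detect it, the renin probes dropped out and gave no value.

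The lower limits against Empty depend on the level taken for background. For H240A at the 3′, 5′ and Ren2 probes they were 255, 38.2 and 119.96 with a floor of 16, 62.6, 9.80 and 38.7 with normexp, and 203, 27.7 and 142 with the deposited value table. For EBF1wt they were 97.2, 13.6 and 44.5, then 24.7, 4.09 and 14.96, and then 80.3, 10.2 and 53.4. Quantile normalization gave 261 (3′) and 119.6 (Ren2) for EBF1wt. Within slide 1 they were 572 (3′) and 264 (Ren2) for H240A and 199, 27.4 and 89.7 for EBF1wt, and within slide 2 431 (Ren2) for H240A and 380, 44.4 and 176 for EBF1wt. Leaving out single arrays gave 541 to 980, 81.3 to 122 and 255 to 461 for H240A, and 206 to 374, 28.9 to 43.3 and 94.6 to 171 for EBF1wt.

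Called genes for H240A minus EBF1wt numbered 1039 as reported, 1751 with a trended robust prior, 338 without a filter, 641 in the deposited value table and 647 with the slide as a block. Within slides 1 and 2 limma called 0 and 0 (1521 and 1601 at an unadjusted p under 0.05), against 1073 and 316 for H240A minus Empty and 133 and 396 for EBF1wt minus Empty. Leaving out single arrays gave 366 (without EBF1wt 1) to 842, 5423 to 7378 and 4191 to 6030. Called members of the 5 lists were 4, 29 and 23 as reported, 2 for H240A minus EBF1wt and 15 for EBF1wt minus Empty without a filter, and 0, 7 and 2 within slide 1 and 0, 2 and 1 within slide 2 (9 and 7 at an unadjusted p under 0.05 for H240A minus EBF1wt). Leaving out single arrays gave 2 to 5, 15 to 29 and 14 to 21, lowest against Empty without Empty 1. The causes of these shifts were not tested.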
